A study of Canis lupus familiaris with 186 samples.

Results

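MYC-high and MYC-low tumors were the 46 canine osteosarcomas with the highest and the 46 with the lowest MYC level, out of 186 primary tumors of the DOG2 dataset. The tumors were chosen by their MYC level, the MYC count per 1000000 counts of the library (CPM), as the top and bottom 46 of 186, which left 94 tumors between the groups. The tumors came from pet dogs of the trials COTC021 and COTC022, 93 dogs in each, with appendicular osteosarcoma and no visible metastasis at diagnosis. Tissue was taken before treatment, and the dogs then received standard of care (amputation and carboplatin) with or without rapamycin. No normal bone was among these samples, and whole pieces of tumor were sequenced, so in every result fewer cells of a type and less RNA per cell cannot be told apart. Each dog also had a GS-1 cluster from the study, favorable prognosis (FP) or poor prognosis (PP), a disease-free interval (DFI) and an overall survival (OSv) in days. The MYC-high group held 23 dogs of COTC021 and 23 of COTC022, of which 15 were FP and 31 PP. The MYC-low group held 27 and 19 dogs of the trials, 12 of them FP and 34 PP.

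MYC is a transcription factor that binds DNA as a dimer with MAX. It is known for raising ribosome production, nucleotide synthesis and entry into the cell cycle, and it is opposed by the MXD and MNT proteins, which share MAX as partner. In osteosarcoma of people and dogs, gain of the chromosome arm or chromosome that carries the gene is a common event.

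Library totals ranged from 6587634 to 27420867 counts, with a median of 10585892 in the MYC-high and 10637236 in the MYC-low group. The names of 50 of the 186 count columns carry a doubled "_", and these libraries were deeper as a group. What the name marks was not given in the sources used here. They were 13 of the 46 MYC-high and 7 of the 46 MYC-low tumors. For some of the results that differed in them, but not for all, the values in these libraries are given.

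MYC (gene ID 403924) lies on chromosome 13 at 25629077 to 25633621 of the build UU_Cfam_GSD_1.0. Its level over the 186 tumors ranged from 8.71 to 371 CPM with a median of 26.7, and 73 to 3543 counts stood behind each value. In the MYC-low tumors the lowest, median and highest values were 8.71, 14.8 and 19.8 CPM, and in the MYC-high tumors 40.7, 51.9 and 371 CPM. These values chose the groups and carry no test. There was no gap at either limit: the last MYC-low tumor had 19.8 CPM and its neighbor outside 20.0, while the first MYC-high tumor had 40.7 CPM and its neighbor outside 40.5. A gap was seen at the very top, where 3 tumors of COTC021 had 371, 173 and 169 CPM and the next tumor 107. The MYC-high tumors of COTC021 reached a median of 61.2 CPM and those of COTC022 a median of 44.8, so the same rank stood for a larger contrast in COTC021. The GS-1 clusters were close in level over all dogs, with medians of 28.3 CPM in FP and 25.4 in PP.

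**Figure D1:**
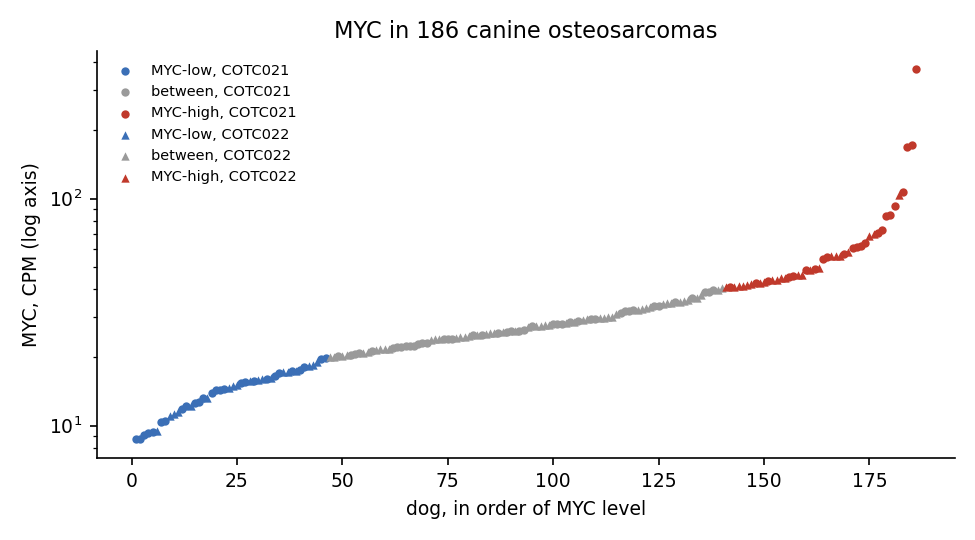
MYC level in CPM (log axis) of each of the 186 tumors in order, with MYC-low tumors in blue, those between in gray and MYC-high tumors in red (circles COTC021, triangles COTC022). The curve is smooth through both limits and leaves its slope only at the 3 highest tumors, all circles.

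Of the 13421 other genes tested between the groups, with trial and GS-1 cluster as covariates, 2224 (16.6%) were differentially expressed genes (DEGs), meaning an adjusted p under 0.05 by limma. In the MYC-high tumors 1232 genes (9.18%) were higher and 992 (7.39%) were lower. Values by which a gene rose or fell are log2 fold changes throughout. Most differences were small: the median size among DEGs was 0.45 on the log2 scale, and 29 genes (0.216%) also passed the fold change of 3 that the study requires, 8 of them higher (0.0596%) and 21 lower (0.156%). When the libraries were scaled by their totals alone, 82.7% of the DEGs were higher in place of 55.4%. The median of all genes then moved to 0.094 on the log2 scale, against -0.0036 in the reported fit. Among the 20 "__" libraries of the groups, 13 against 7, no gene passed by limma (1153 at an unadjusted p under 0.05), while 94.8% of the 2224 DEGs kept their sign. For 55.8% of the genes tested, the median CPM of the 94 tumors in between lay between the medians of the groups.

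Many genes of ribosome assembly rose. The canonical MYC targets were a list of textbook targets for ribosome assembly, protein folding, metabolism and cell division. Of 65 canonical MYC targets tested, 49 (75.4%) were higher and 1 was lower. Their median log2 fold change was 0.44 against -0.0036 for all genes. The log2 fold change was above 0 for 64 of the 65. DKC1, the enzyme that converts uridine to pseudouridine in ribosomal RNA, ranged from 24.0 to 119 CPM with a median of 57.2 in the MYC-low tumors, and from 53.5 to 316 with a median of 91.3 in the MYC-high tumors. The 94 tumors between had a median of 69.3. The groups overlapped, but the lowest MYC-high tumor stood just under the MYC-low median. Its log2 fold change was 0.71 (SE 0.10, adjusted p = 3.56e-07 by limma), and the trials gave 0.81 (COTC021) and 0.58 (COTC022).

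Other members with the smallest p had similar changes. MYBBP1A, a nucleolar protein that binds MYB, and NOP2, a methyltransferase of ribosomal RNA, each rose by 0.78. TCOF1, which helps transcription of ribosomal RNA genes, rose by 0.76, FBL, the fibrillarin methyltransferase, by 0.67 and NOP56, its partner in small nucleolar particles, by 0.52. NPM1, the main nucleolar phosphoprotein, had medians of 714 CPM in MYC-low and 1047 CPM in MYC-high tumors and rose by 0.54. Some well known targets did not pass the test: ODC1, the first enzyme of polyamine synthesis, had 0.17 (adjusted p = 0.42 by limma), LDHA, the lactate dehydrogenase of glycolysis, 0.14 and CCND2, a G1 cyclin, 0.13. The member that fell was DUSP2, a nuclear phosphatase of MAP kinases known from immune cells, with -0.88 and adjusted p = 0.047 by limma.

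Over all 186 tumors, the 10 genes with a symbol whose TMM-normalized level had the highest Spearman correlation with MYC were mostly of this kind. They were UTP4 (rho 0.430), NOB1 (0.419), DKC1 (0.418), USP36 (0.407), GEMIN4 (0.404), RRS1 (0.402), NLE1 (0.402), DDX21 (0.399), POLR1G (0.390) and GPATCH4 (0.389). UTP4, NOB1, RRS1 and NLE1 act in the assembly of ribosomal subunits, DDX21 is a nucleolar helicase, POLR1G a subunit of RNA polymerase I, and USP36 a nucleolar deubiquitinase known to stabilize MYC. Each correlation is a description over 186 tumors that share library and depth with MYC. UTP4 had medians of 31.3, 41.3 and 57.8 CPM in the low, between and high tumors, and its highest value was 66.3 in MYC-low and 326 in MYC-high tumors. It rose by 0.90 (SE 0.12, adjusted p = 3.56e-07 by limma).

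**Figure D2:**
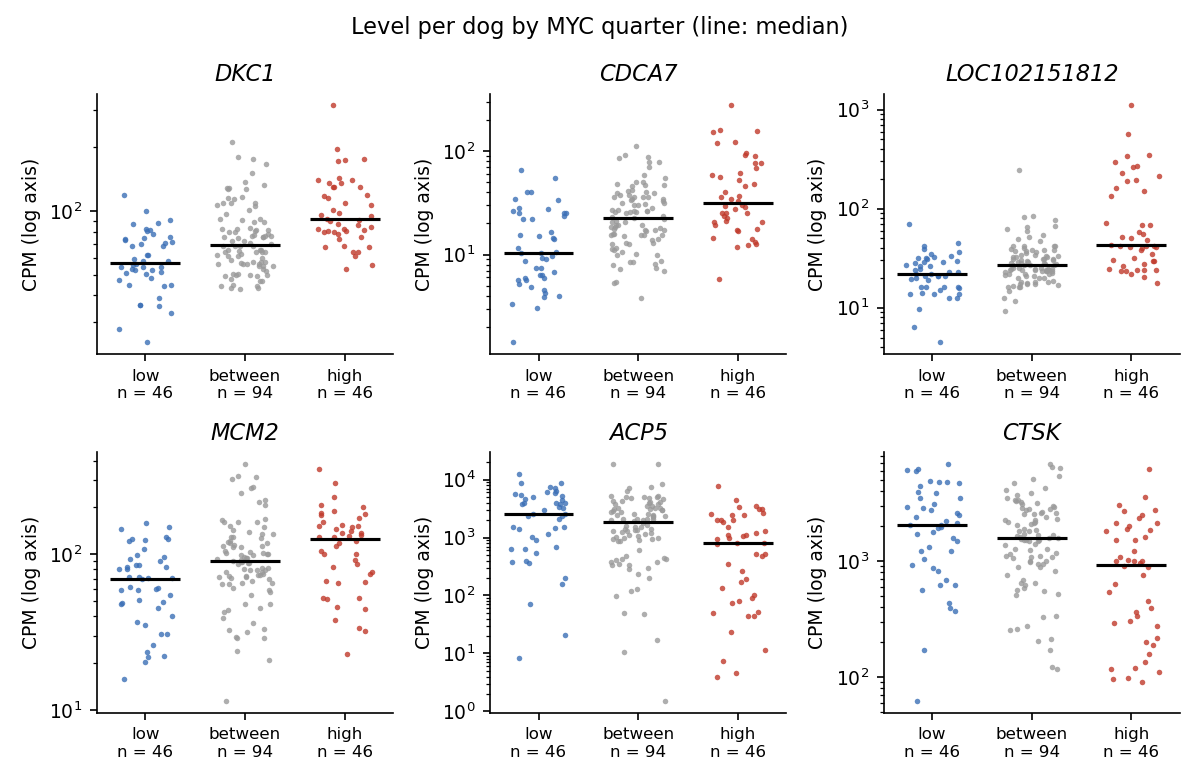
Level per tumor in CPM (log axes) of 6 genes in the MYC-low (46), between (94) and MYC-high (46) tumors, with the median as a line. DKC1, CDCA7, LOC102151812 and MCM2 step up from low to high and ACP5 and CTSK step down, with overlap between the groups in every panel.

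The machinery that transcribes ribosomal and transfer RNA moved less. Of 32 genes of RNA polymerases I and III, 11 (34.4%) were higher and 21 did not pass, with a median of 0.21. POLR1G rose by 0.70, POLR1B, the second largest subunit of polymerase I, by 0.46, and UBTF, the factor that opens ribosomal RNA genes, by 0.37. Among 29 translation factors and transfer RNA synthetases 10 (34.5%) were higher and 19 did not pass, with a median of 0.22. EIF3B, a subunit of the initiation factor that loads ribosomes on messenger RNA, had medians of 176 and 279 CPM in low and high tumors and rose by 0.56. Of 53 genes of cytosolic ribosomal proteins 3 (5.66%) were higher, RPL35 by 0.36, RPL5 by 0.33 and RPL14 by 0.30, which is below the 9.18% of all genes. Their median was 0.17, with 49 of the 53 above 0. The trials gave medians of 0.31 (COTC021) and 0.02 (COTC022). Ribosomal protein genes have near-identical pseudogenes, and how reads were divided among such copies was not measured here.

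Nucleotide synthesis rose over much of the purine and pyrimidine pathways. Of 29 genes 15 (51.7%) were higher and 14 did not pass, all 29 log2 fold changes were above 0, and the median was 0.37. PFAS, of the purine pathway, ranged from 16.6 to 90.9 CPM (median 44.6) in MYC-low and from 27.2 to 168 (median 70.9) in MYC-high tumors. It rose by 0.63 (SE 0.11, adjusted p = 5.06e-05 by limma). GART and PAICS, which act in the same pathway, rose by 0.53 and 0.65. For pyrimidines, DHODH rose by 0.61 and CTPS1, which makes CTP, by 0.63. MTHFD1, of the folate cycle that feeds both, rose by 0.60. Among enzymes that supply building blocks of DNA, RRM2 with 0.40, RRM1 with 0.15 and TYMS with 0.35 did not pass the test. DCK, also of this kind, rose by 0.64 (adjusted p = 0.00265 by limma).

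Other metabolic lists stood nearer to all genes than nucleotide synthesis did. Among 15 genes of amino acid supply 4 were higher (26.7%), namely the serine enzyme PSAT1 by 0.85, and the transporters SLC38A1 by 0.56, SLC7A5 by 0.82 and SLC1A5 by 0.38. SLC7A5 was -0.10 in the "__" libraries. Of 20 glycolysis genes 2 were higher (10.0%, against 9.18% of all genes) and 18 did not pass. The 2 higher genes were SLC16A1, a lactate transporter, with 0.84, and LDHB with 0.38. The list median was -0.01, with -0.47 in the "__" libraries and 0.10 in the other libraries. Of 9 polyamine genes 1 was higher (11.1%) and 1 was lower (11.1%, against 7.39% of all genes). AMD1, which makes the aminopropyl donor, rose by 0.27 and OAZ1, the antizyme that holds polyamines down, fell by 0.36. Mitochondrial biogenesis had 4 of 19 genes higher (21.1%, against 9.18% of all genes). TWNK, the helicase of mitochondrial DNA, was at 0.45 and TOMM40, the import pore of the outer membrane, at 0.52.

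Cell division genes rose almost without exception. Of 30 genes of S phase and mitosis 29 (96.7%) were higher, the last being CENPE with 0.38 and adjusted p = 0.0503 by limma, and the median was 0.59. MCM2, a subunit of the replicative helicase, ranged from 15.9 to 159 CPM (median 69.9) in MYC-low and from 23.0 to 351 (median 126) in MYC-high tumors, and rose by 0.71 (SE 0.16, adjusted p = 0.00103 by limma). CDC6 and CDC45, which license and start replication origins, rose by 0.78 and 0.77, and TOP2A, the topoisomerase of dividing cells, by 0.72. MKI67, the usual marker of dividing cells, rose by 0.63, from a median of 88.7 to one of 162 CPM, but was -0.28 in the "__" libraries. With all 186 dogs divided into 93 against 93, none of the 30 genes passed the test by limma, with 14 higher at an unadjusted p under 0.05. Within COTC022 alone none passed by limma either, with 22 at an unadjusted p under 0.05, and within COTC021 alone 3 passed. The median was 0.63 in COTC021 and 0.54 in COTC022.

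Upstream of these, 8 of 16 G1 control genes were higher (50.0%, against 9.18% of all genes) and 8 did not pass. CDC25A, the phosphatase that activates CDK2 and a known MYC target, rose by 0.75, E2F8 by 0.84, CDK2 by 0.48, E2F3 by 0.44 and E2F1 by 0.51. The D-type cyclins gave -0.43 for CCND1 and 0.03 for CCND3, and RB1, the brake that cyclin D kinases release, gave -0.31, none past the test.

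CDCA7, a chromatin factor of dividing cells and a known MYC target, had the smallest adjusted p of the genes with the largest rises. It ranged from 1.42 to 65.3 CPM (median 10.3) in MYC-low and from 5.77 to 276 (median 31.5) in MYC-high tumors, with a median of 22.7 between. Its log2 fold change was 1.65 (SE 0.24, adjusted p = 3.01e-06 by limma), 1.87 in COTC021, 1.34 in COTC022 and 1.39 in the "__" libraries. When the mean z-score of the 30 division genes was added to the fit, chosen after the data were seen, CDCA7 kept 1.04 (adjusted p = 0.0031 by limma) and DKC1 kept 0.56. In that fit, 317 genes passed, 159 higher (1.18%) and 158 lower (1.18%), with 13 of the 65 canonical targets higher. Of the 29 nucleotide synthesis genes 2 were higher there, with a median of 0.15, and of the 16 G1 control genes 0.

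Among the partners and regulators of MYC, 10 of 31 (32.3%) were higher and 21 did not pass. With the score of the division genes in the fit, 2 of the 31 were higher. AURKA, a mitotic kinase known to stabilize MYC family proteins, rose by 0.79, SKP2, of a ubiquitin ligase that acts on MYC, by 0.71, and USP36 by 0.60. RUVBL2 and RUVBL1, paired ATPases that bind MYC, rose by 0.58 and 0.47, and CIP2A, which shields MYC from its phosphatase, by 0.55. MAX had medians of 42.1 and 52.8 CPM and a log2 fold change of 0.24 that missed the threshold (adjusted p = 0.0513 by limma). The antagonists did not pass either, with 0.12 for MNT, -0.14 for MXD4 and -0.15 for MXD1, nor did FBXW7, the ligase that marks MYC for degradation, with -0.04. The paralogs were low in both groups: MYCN had medians of 1.85 CPM in MYC-low and 1.41 in MYC-high tumors, and MYCL 3.30 and 3.72.

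Of 14 genes that MYC is known to lower, 2 (14.3%, against 7.39% of all genes) were lower and 12 did not pass, with a median of -0.23. CDKN1A, the p21 inhibitor of cyclin kinases, fell by 0.52 and ITGA1, a collagen receptor subunit, by 0.53. Of 18 immediate early genes 1 was lower (5.56%), FOSL2 with -0.43. Of 14 Wnt targets and TCF factors 1 was higher (7.14%, against 9.18% of all genes), the Wnt feedback ligase ZNRF3 with 0.54. Both shares were below those of all genes.

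**Figure D3:**
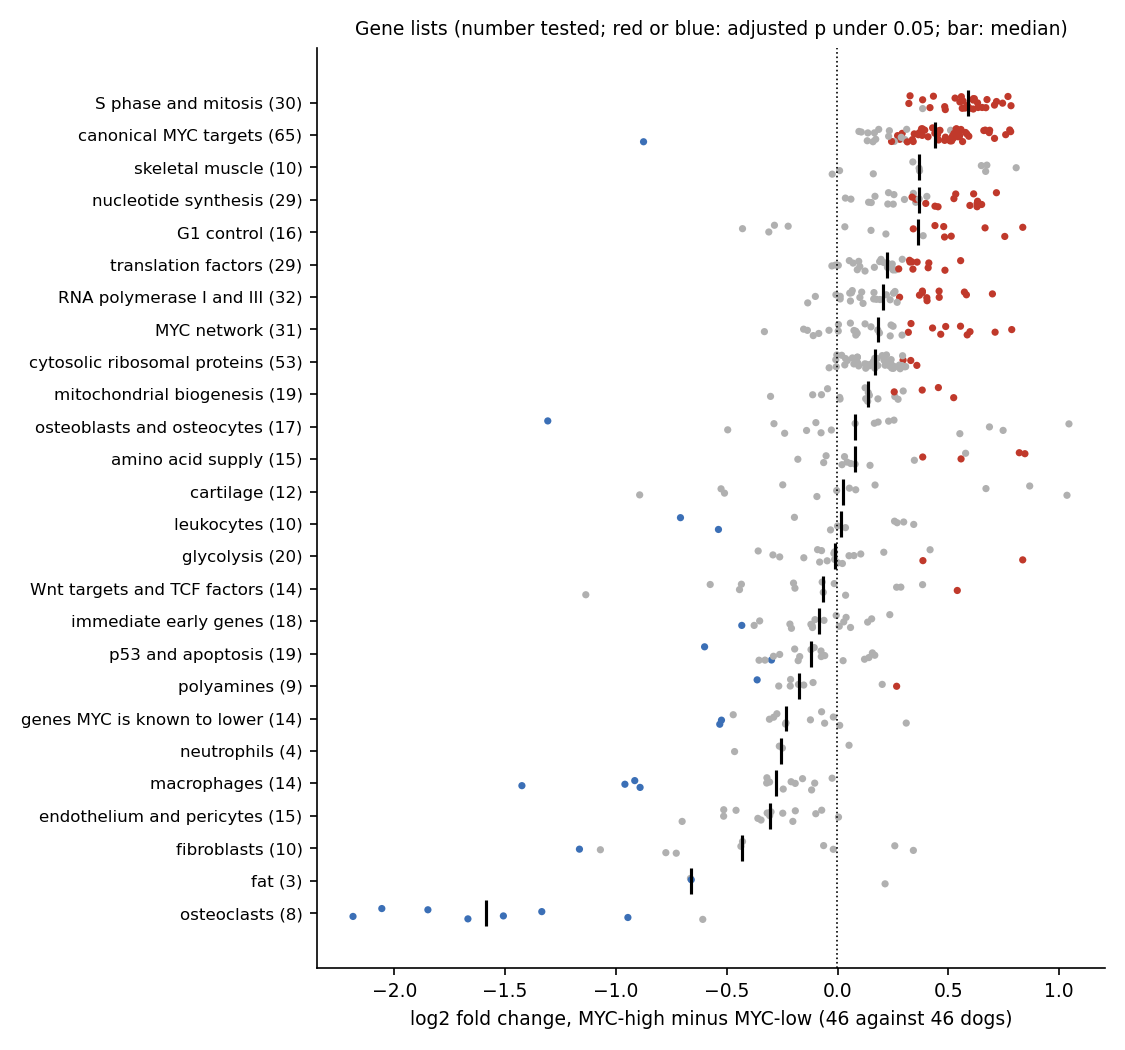
Log2 fold change of each tested gene, MYC-high minus MYC-low, by gene list, with the number tested in brackets, the list median as a bar, genes with an adjusted p under 0.05 in red (higher) or blue (lower), and the median of all genes as a dotted line. S phase and mitosis (median 0.59) and canonical MYC targets (0.44) lie at the top and osteoclasts (-1.59) at the bottom.

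Among the gene lists, the lowest median was that of osteoclasts, the cells that resorb bone. Of 8 osteoclast markers tested 7 (87.5%) were lower, against 7.39% of all genes, with a median log2 fold change of -1.59. ACP5, the tartrate-resistant phosphatase by which osteoclasts are stained, ranged from 8.33 to 12532 CPM (median 2547) in MYC-low and from 3.96 to 7834 (median 802) in MYC-high tumors, with a median of 1854 between. The groups overlapped over nearly their whole range. It fell by 2.19 on the log2 scale (SE 0.53, adjusted p = 0.00216 by limma). CTSK, the collagen-cutting cathepsin of osteoclasts, had medians of 2047 and 929 CPM and fell by 1.51, MMP9 by 2.06, TNFRSF11A, the RANK receptor, by 0.95, and ATP6V0D2, a proton pump subunit, by 1.85. OCSTAMP and DCSTAMP, needed for cell fusion, fell by 1.67 and 1.33, while the integrin ITGB3 had -0.61 (adjusted p = 0.070 by limma). The summed level of the 8 markers ranged from 83.2 to 39467 CPM (median 6268) in MYC-low and from 126 to 22678 (median 2434) in MYC-high tumors.

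This difference was seen in the libraries without "__", where the median of the 8 markers was -2.23. In the 20 "__" libraries it was -0.27, and ACP5 was -0.09 there. The interaction of the MYC group with the library name, added after the data were seen, did not pass the test for any of the 8 markers (adjusted p from 0.965 to 0.986 by limma). For ACP5 it was -2.15 (SE 1.36), the other libraries minus the "__" libraries. Over the markers it ran from -2.60 for DCSTAMP (unadjusted p = 0.022 by limma) to -0.28 for ITGB3. The adjustment was over all genes tested. By trial the median of the markers was -1.22 in COTC021 and -2.04 in COTC022, and within COTC021 alone none of the 8 passed the test by limma, with 3 lower at an unadjusted p under 0.05.

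Several of the 15 named genes with the largest decreases are known from these cells as well. SIGLEC15, a receptor that takes part in osteoclast fusion, had medians of 15.6 and 5.93 CPM and fell by 1.98, and OSCAR, a costimulatory receptor of osteoclasts, fell by 1.87. MCOLN3, a lysosomal channel, fell by 1.74 and DPP4, a surface peptidase, by 1.67, from a median of 283 to one of 90.9 CPM. Over all 186 tumors ATP6AP2, an accessory protein of the proton pump, and OSTM1, a subunit of the lysosomal chloride exchanger whose loss blocks resorption, were among the 5 genes with the lowest correlation with MYC, with rho of -0.411 and -0.393. The lowest was ZNF365 with rho -0.424, and the others were DYNLT3 and MCOLN3. ZNF365 fell by 0.81 and kept -0.55 (adjusted p = 0.0065 by limma) with a score for the osteoclast markers in the fit. In that fit DYNLT3 with -0.61, MCOLN3 with -0.83 and OSTM1 with -0.36 also passed by limma (adjusted p = 0.0092, 0.042 and 0.031). ATP6AP2 had -0.33 there and did not pass (adjusted p = 0.12 by limma).

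Outside the osteoclast genes, MAB21L2 fell by 2.52, from a median of 9.53 to one of 0.79 CPM, but had -0.36 in the "__" libraries. FMOD, a small proteoglycan of collagen matrix, fell by 1.90, with -3.02 in COTC021 and -0.52 in COTC022. The remaining genes of the 15 were MAP1LC3C, MTTP, NYAP2, DDX4 and MYH15, between -1.96 and -1.66. With the osteoclast score in the fit MAP1LC3C had -1.73, FMOD -1.85 and MAB21L2 -2.35, which still passed, while MTTP had -0.40, MYH15 -0.29, DDX4 -0.12 and NYAP2 0.022, which did not.

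The osteoclast markers were also set into the fit as a covariate, as their mean z-score, chosen after the data were seen. Then 754 genes passed, 522 higher (3.89%) and 232 lower (1.73%), and the median of the 8 markers was 0.02, as the score is made of them. Of the canonical targets 28 of 65 were still higher, DKC1 with 0.60 (adjusted p = 2.4e-04 by limma), and of the 30 division genes 9.

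Some macrophage markers fell too. Of 14 macrophage markers 4 were lower (28.6%, against 7.39% of all genes), 0 had a log2 fold change above 0, and the median was -0.28. The 4 were TYROBP (-0.89), CSF1R (-0.96), CD68 (-1.42) and CD14 (-0.92), TYROBP, CSF1R and CD68 being known from osteoclasts as well. Within COTC021 alone, the FP cluster and the "__" libraries none of the 14 passed by limma, with 4, 2 and 1 lower at an unadjusted p under 0.05. CSF1R ranged from 33.7 to 692 CPM (median 295) in MYC-low and from 18.6 to 521 (median 152) in MYC-high tumors. The scavenger receptors CD163 with -0.10, MRC1 with -0.02 and MSR1 with -0.31 did not pass. With the osteoclast score in the fit none of the 14 passed by limma (2 lower at an unadjusted p under 0.05), and CSF1R had -0.25 (adjusted p = 0.22 by limma).

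The largest rises outside the lists were of other kinds. DPYSL5, a cytoskeletal protein of growing axons, rose by 2.07 and LINGO1, a neuronal surface protein, by 2.04, both from low levels, with medians of 0.42 and 2.07 CPM for DPYSL5 and 0.61 and 2.10 for LINGO1. LINGO1 had 0.56 in the "__" libraries. CD5L, a secreted macrophage protein, rose by 1.87 and IHH, the hedgehog ligand of growth plate cartilage, by 1.79. These were low as well, with medians of 1.01 and 3.90 CPM for CD5L and 0.52 and 2.13 for IHH. CD5L had 0.75 in the "__" libraries. By limma LINGO1 passed in COTC021 alone, while DPYSL5, CD5L and IHH passed in neither trial alone. CBS, which makes cystathionine from homocysteine, had medians of 7.63 and 24.3 CPM and rose by 1.16 (SE 0.26, adjusted p = 0.00115 by limma), and KAZALD1 had medians of 13.2 and 34.1 and rose by 1.21. The other genes of the 15 were TSPAN33, MYRF, CEP72, NAT8L, TPBGL, CNTFR, SCML2 and PCSK6, between 1.72 and 1.15.

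Several neighbors of MYC on chromosome 13 were higher. Within 3 Mb of its start 16 genes were tested, and 8 of them (50.0%) were higher and 8 did not pass, 15 were above 0, with a median log2 fold change of 0.55. From 3 to 10 Mb away 7 of 39 were higher (17.9%) with a median of 0.16. From 10 to 20 Mb 10 of 110 were higher (9.09%) with a median of 0.09. From 20 to 50 Mb 15 of 85 were higher (17.6%) with a median of 0.10, so the share did not fall steadily with distance. The sides of MYC were not tested against each other: up to 5 Mb on the side of lower coordinates 11 of 22 genes were higher with a median of 0.51, and up to 5 Mb on the other side 1 of 13 with a median of 0.05. For all of chromosome 13 the share was 16.0% of 250 genes, against 9.05% on the other chromosomes. By this share it ranked 4 of 39 chromosomes, behind chromosomes 9 (17.2%), 8 (16.9%) and 36 (16.2%), and its median of 0.11 ranked 1, just above that of chromosome 8, also 0.11.

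The nearest tested gene, the long noncoding RNA LOC102151812, starts 0.050 Mb from the MYC start, at 25679494 to 25917444. It had the highest correlation with MYC of any gene, with rho 0.477. Its level was 4.46 to 70.6 CPM (median 21.7) in MYC-low and 17.7 to 1102 (median 42.8) in MYC-high tumors, and it rose by 1.63 (SE 0.24, adjusted p = 3.01e-06 by limma). The change was 2.16 in COTC021 and 0.90 in COTC022. TRMT12, a transfer RNA enzyme, had medians of 6.65 and 12.0 CPM and rose by 0.96 (SE 0.17, adjusted p = 5.06e-05 by limma). SQLE, the squalene epoxidase of cholesterol synthesis, rose by 0.74, ZNF572 by 0.68, TATDN1 by 0.62, NDUFB9, a subunit of respiratory complex I, by 0.58, NSMCE2, a SUMO ligase of the SMC5/6 complex, by 0.53 and RNF139 by 0.46. TMEM65, MTSS1, WASHC5, TRIB1, LRATD2, LOC119864948, CYRIB and ASAP1 did not pass, with values from -0.07 for CYRIB to 0.85 for LOC119864948. LRATD2 stood at 1.89 in COTC021 and at -0.56 in COTC022. Within COTC022 alone none of the 16 passed by limma, with 3 higher at an unadjusted p under 0.05, and within COTC021 alone 6 passed.

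The 3 tumors with the highest MYC differed in these neighbors. LOC102151812 had 1102 CPM in the tumor with the most MYC, 564 in the next and 260 in the third, which were ranks 1, 2 and 7 of the 186 tumors. The mean z-score of the 16 neighbors ranked 118 in the tumor with the most MYC, and 7 and 11 in the other two. DNA copy number was not analysed here. Without these 3 tumors, an alternative chosen after the data were seen, 1691 genes passed, 967 higher and 724 lower, and 1667 of them were among the 2224.

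**Figure D4:**
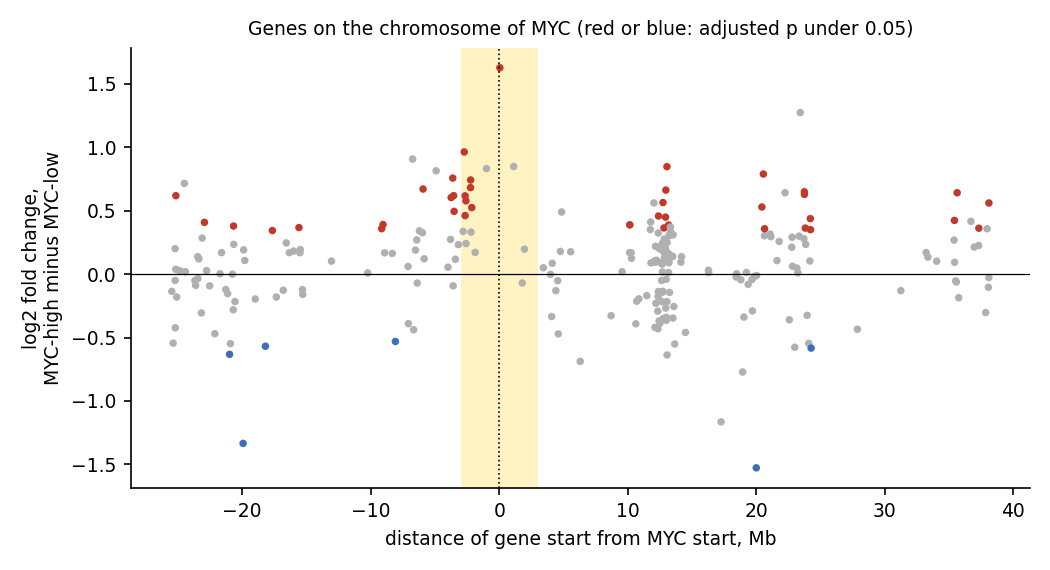
Log2 fold change, MYC-high minus MYC-low, of each tested gene on the chromosome of MYC against the distance of its start from the MYC start in Mb, with genes past an adjusted p of 0.05 in red (higher) or blue (lower) and 3 Mb on either side shaded. Of the 16 genes in the shaded band 15 lie above 0, and the red points there are on the left of MYC or next to it.

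By the listed events, OSv was shorter in the MYC-high group. Over all 186 dogs there were 124 OSv events, and the remaining dogs were censored. More dogs were censored than the study lists as alive or lost to follow-up. An OSv event here therefore does not stand for death from any cause, and the medians and hazard ratios carry that limit. The Kaplan-Meier median OSv was 607 days (95% interval from 280, no upper bound) in MYC-low dogs with 22 events among 46, 282 days (220 to 417) in the 94 dogs between, and 234 days (178 to 368) in MYC-high dogs with 37 events among 46. In a Cox model with separate baselines for the trials and the GS-1 cluster as covariate, the hazard ratio of MYC-high against MYC-low was 2.16 (95% interval 1.25 to 3.75, two-sided Wald p = 0.00582, and p = 0.0116 adjusted over the 2 endpoints). The log-rank test gave p = 0.00551. The hazard ratio was 2.36 (1.15 to 4.86) in COTC021 and 1.89 (0.82 to 4.34) in COTC022, and the interaction with the trial gave p = 0.678. With a score for S phase and mitosis in the model it was 2.13, and with the osteoclast score 2.11. It did not hold with all dogs divided into 93 against 93, where the ratio was 1.12 (0.78 to 1.60).

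The DFI pointed the same way with a ratio that missed the threshold. The median DFI was 210 days (163 to 429) in MYC-low, 163 days (138 to 291) in the dogs between and 121.5 days (99 to 212) in MYC-high dogs, with 34, 71 and 38 events. The hazard ratio was 1.61 (0.995 to 2.62, two-sided Wald p = 0.0524, log-rank p = 0.0578). In COTC021 it was 1.91 (0.98 to 3.71) and in COTC022 1.33 (0.66 to 2.66), with p = 0.450 for the interaction. With the S phase and mitosis score in the model it was 1.32 (0.77 to 2.28). With all dogs divided into 93 against 93 the ratio was 1.08 (0.78 to 1.51).

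**Figure D5:**
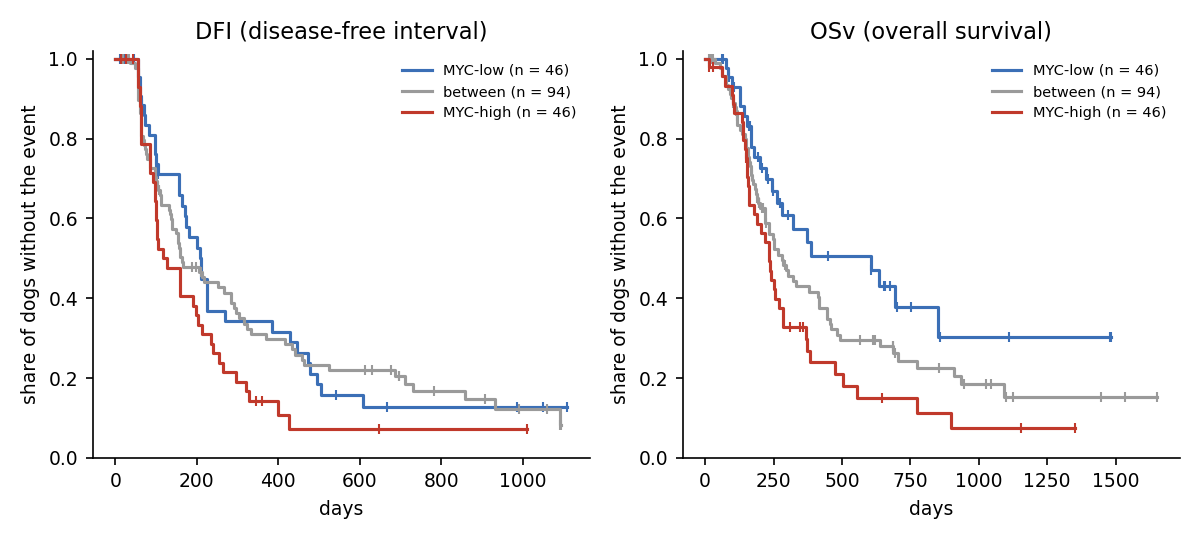
Kaplan-Meier curves of DFI (left) and OSv (right) in days for MYC-low (46), between (94) and MYC-high (46) dogs, with ticks for censored dogs. For OSv the curves end in the order of the MYC level, with medians of 607, 282 and 234 days, while for DFI the MYC-low and between curves cross.

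Whether the difference between the groups itself differed between dogs was tested gene by gene. No gene had an interaction of the MYC group with the trial or with the GS-1 cluster that passed in limma (811 and 339 genes with an unadjusted p under 0.05). The edgeR quasi-likelihood test passed LRATD2 for the trial and KERA, the proteoglycan keratocan, for the cluster. Within the PP cluster alone 971 genes passed by limma, 546 higher and 425 lower. In the FP cluster, with 15 against 12 dogs, 4 genes passed, 3 higher and 1 lower, while 99.4% of the 2224 DEGs kept their sign there.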

How the data were processed

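Primary tumors of 186 dogs were profiled by mRNA sequencing (TruSeq Stranded mRNA). Per the submitters' processing notes the tools were bcl2fastq, Cutadapt, STAR 2.7.0f and RSEM 1.3.1. The authors deposited RSEM expected counts for 37952 genes, not normalized and against GSD_1.0, in which reads that map to several genes are divided between them. Of the values 3.07% were not whole, and all were rounded. Columns without a labelled sample (12) were not used. Totals of 6587634 to 27420867 counts per library set the precision, and CPM is the count divided by that total. GS-1 clusters, DFI and OSv were those listed with the study.

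Low counts were removed by the filterByExpr function of edgeR 4.0.16, with settings of 10 for the smallest count, 0.5 for the share of libraries and 5 for large groups, and the rest scaled by TMM over the 186 libraries. The 92 dogs of the groups were fitted by limma 3.58.1 voom (R 4.3.3), with trial and GS-1 cluster as covariates, Benjamini-Hochberg adjustment over 13421 genes and a threshold of 0.05. MYC was left out, since it chose the groups. The script was tested on simulated data. Cox models and log-rank tests used survival 3.8.3. Alternatives, including the edgeR quasi-likelihood test and DESeq2 1.42.0, were run 1 at a time. Positions came from RefSeq (UU_Cfam_GSD_1.0).

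Groups, gene lists and rules were chosen with earlier results of these data known. Named genes were the 15 DEGs with a symbol and the largest rise and the 15 with the largest fall, with the same sign in both trials, the 10 highest and 5 lowest correlations with MYC, the genes within 3 Mb of MYC, list members with the smallest p or defining role, and genes with an interaction. Named outside this rule, after their values were seen, were members of these lists that did not pass the test. Each dog is 1 animal and 1 library. Promoter motifs were not analysed here. Some results are not reported here.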

Additional observations from a re-analysis of the deposited data

How the results depend on the processing

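No paired analysis was possible because each dog is a separate animal and replicate numbers follow accession order. The motif search in promoters was not run. Alternatives kept the 2224 DEGs within 1.5 times except the following, and the cause was not tested. With 93 against 93 dogs there were 804 (377 higher, 427 lower), in COTC021 918 (573, 345), in COTC022 224 (62, 162), in the "__" libraries 0 (0, 0; 1153 unadjusted), in FP 4 (3, 1), in PP 971 (546, 425), with the osteoclast score 754 (522, 232) and with the S phase score 317 (159, 158). Library totals gave 2208 higher and 462 lower. The 29 genes with a fold change over 3 became 2 with 93 against 93 dogs, 16 with 62 against 62, 0 per doubling of MYC, 67 in groups by TMM-normalized MYC, 65 with edgeR, 0 in the "__" libraries, 63 in the other libraries, 0 in FP, 17 without the 3 highest MYC libraries, 8 with the osteoclast score and 11 with the S phase score. Fewer dogs entered the fits by trial, cluster or library name.

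Canonical targets called higher went from 49 to 24 with 93 against 93 dogs, 7 in COTC022, 0 in the "__" libraries (22 unadjusted), 2 in FP, 27 in PP, 28 with the osteoclast score and 13 with the S phase score. The 29 genes of S phase and mitosis became 0 with 93 against 93 dogs (14 unadjusted), 3 in COTC021, 0 in COTC022 (22 unadjusted), 0 in the "__" libraries (3 unadjusted), 0 in FP (8 unadjusted), 14 in PP, 9 with the osteoclast score and 0 with the S phase score, which they make up. The 7 osteoclast markers became 0 in COTC021 (3 unadjusted), 4 in COTC022, 0 in the "__" libraries (0 unadjusted), 0 in FP (1 unadjusted), 4 in PP, 0 with the osteoclast score (1 unadjusted) and 2 with the S phase score. The 8 genes near MYC became 4 with 93 against 93 dogs, 5 with 62 against 62, 0 in COTC022 (3 unadjusted), 0 in the "__" libraries (6 unadjusted), 4 in the other libraries, 0 in FP (4 unadjusted) and 4 with the S phase score.

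The DFI ratio passed the threshold by the Wald test with 62 against 62 dogs (1.65, p = 0.0170) and in groups taken within each trial (1.73, p = 0.0272). It also passed in groups by TMM-normalized MYC (1.97, p = 0.00663). With 93 against 93 dogs it was near 1 (1.08, 0.78 to 1.51, Wald p = 0.637). The OSv ratio of 2.16 did not pass with 93 against 93 dogs (1.12, p = 0.539), in COTC022 (1.89, p = 0.135) or in the "__" libraries (2.60, p = 0.233). With edgeR, 1 gene each interacted with the trial, the GS-1 cluster and the library name, against 0 in limma.

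For the 52 DEGs named by the size of their change, their correlation or their place near MYC, 901 of 1184 values over the alternatives kept sign and call, 278 lost the call and 5 changed sign. In the "__" libraries TPBGL was -0.21 and DPP4 was 0.15. With the osteoclast score NYAP2 was 0.022, ATP6V0D2 0.049 and OCSTAMP 0.33.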

Other observations

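Markers of other cell types gave few DEGs between the MYC-high and MYC-low groups, although some list medians were as far from 0 as those of the pathway lists. Of 17 genes of osteoblasts and osteocytes tested, 1 was lower (5.88%, against 7.39% of all genes). It was SPP1, the osteopontin of bone matrix that osteoclasts also make, lower by 1.31, from a median of 1704 to one of 888 CPM. With the osteoclast score in the fit SPP1 had -0.36 (adjusted p = 0.39 by limma). The median of that list was 0.08, with COL1A2 at -0.29 and ALPL, the alkaline phosphatase of osteoblasts, at 0.55. Of 10 fibroblast markers 1 was lower (10.0%), the proteoglycan lumican (LUM), by 1.16. The list median was -0.43, with -0.74 in COTC021 and 0.06 in COTC022. Of 10 pan-leukocyte and lymphocyte markers 2 were lower (20.0%, against 7.39% of all genes), LCP1 by 0.71 and PTPRC, the leukocyte antigen CD45, by 0.54, while CD3E of T cells had 0.30 and JCHAIN of plasma cells 0.27. Their list median was 0.02.

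Of 15 genes of endothelium and pericytes none passed by limma, and their median of -0.31 was 0.02 in COTC021 and -0.61 in COTC022. The 12 cartilage genes had a median of 0.02, the 10 skeletal muscle genes 0.37 and the 4 neutrophil genes -0.26, without a DEG by limma. Of 3 fat genes LPL was lower, by 0.66, and the list median was -0.66. No red cell gene passed the filter on low counts.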
